A study of Mus musculus with 9 samples.

Results

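Genes that encode chaperones and disulfide isomerases of the endoplasmic reticulum (ER) were followed in RNA-seq libraries of mouse pancreatic islets. The 10 genes are Hspa5, Hyou1, Sdf2l1, Hsp90b1, Calr, Canx, Pdia3, P4hb, Pdia4 and Pdia6. They were picked by symbol, with earlier results of these data known. Each was found among the 24420 genes of the count table and among the 24347 genes of the FPKM table. All 10 passed the filter on low counts and were among the 12501 genes tested. The question was how their transcripts differed between islets in which Ogt had been deleted with Rip-cre and islets without Cre. Ogt encodes the enzyme that attaches O-linked N-acetylglucosamine to nuclear and cytosolic proteins.

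The islets came from female mice and were kept in culture overnight before RNA was taken. The 4 knockout (KO) libraries had the genotype Rip-cre; Ogt f/f, in which an insulin promoter drives Cre, so the deletion is aimed at beta cells and the other islet cells keep the gene. The 5 wild-type (WT) libraries carried no Cre: WT 1 and WT 3 were Ogt f/+, and WT 2, WT 4 and WT 5 were Ogt f/f. WT 1, WT 2, WT 3, KO 1 and KO 2 were sequenced in run 1, and WT 4, WT 5, KO 3 and KO 4 in a later run, called run 3 here. No library carried Rip-cre without a floxed Ogt, so the transgene and the deletion cannot be told apart. The labels do not say that each library is a separate animal, so a p-value here speaks of the spread among libraries, part of which may be technical.

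A protein that enters the ER is folded there before it can be secreted, and the proinsulin of beta cells, which is held together by disulfide bonds, takes this route. Hspa5 (BiP) is the HSP70 of the ER and binds unfolded chains, Hsp90b1 (GRP94) is its HSP90, Calr and Canx hold glycoproteins by their sugars, and the protein disulfide isomerases make and rearrange disulfide bonds. When unfolded protein builds up, the sensors Atf6, Ern1 (IRE1) and Eif2ak3 (PERK) start the unfolded protein response, and many ER chaperone genes respond to ATF6 and to spliced XBP1 through a promoter element called the ER stress response element (ERSE).

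Total counts were 3796043 to 4462754 per library in run 1 and 5150443 to 6073537 in run 3. Between 9.62% and 28.5% of them belonged to Rn45s, the precursor of ribosomal RNA. Ogt stood at 54.1 to 83 CPM (counts scaled to a common library size) in WT and at 23.7 to 39.3 CPM in KO libraries, with no overlap. Its log2 fold change was −1.30 ± 0.14 (SE; adjusted p = 2.44e-05, edgeR's quasi-likelihood test). The beta cell transcripts Ins2 and Iapp and the alpha cell transcript Gcg were detected in every library. Acinar digestive enzyme transcripts, which mark exocrine tissue carried along with islets, also differed: their summed level over the 22 of 25 markers that passed the filter, led by Ctrb1 and Cela1, was 3235 to 8240 CPM in WT and 577 to 2745 CPM in KO libraries of run 1, and 180 to 199 CPM in WT and 119 to 339 CPM in KO libraries of run 3. None of the 25 was at 0 in all libraries. Acinar cells also express the ER chaperones, so these values stand beside the results below.

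The promoters are shown first because the ERSE links several of these genes. RefSeq windows on GRCm38.p6, from 250 bases before to 50 bases after a transcript start, matched 9 of the 10 genes, all but Hyou1. The exact ERSE, searched on both strands as CCAAT and CCACG with 9 bases of any kind between them, occurred in 39 of 32851 windows (0.119%) and in those of 5 of the 9 genes: Hspa5, Hsp90b1, Calr, Canx and Pdia6. Hsp90b1 held 2 sites. ER chaperone genes are known for this element, so these shares describe the windows and test nothing. The 250 bases before the Hspa5 start (chr2:34771840-34772089, plus strand) are given whole, since Hspa5 is the reference gene of the response. Each other line gives the 39 bases around a site, read 5′ to 3′ in the direction of the gene. Capitals mark the letters fixed by the ERSE. Where they read CGTGG and ATTGG, the element lies on the strand opposite to the gene.
Hspa5: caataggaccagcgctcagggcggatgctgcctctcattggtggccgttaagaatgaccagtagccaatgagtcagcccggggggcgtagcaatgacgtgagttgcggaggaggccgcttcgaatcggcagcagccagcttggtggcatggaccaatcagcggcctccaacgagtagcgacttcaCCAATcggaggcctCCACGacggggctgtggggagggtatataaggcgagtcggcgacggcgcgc
Hsp90b1, chr10:86705628-86705666, minus strand: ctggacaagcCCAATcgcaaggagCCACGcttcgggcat
Hsp90b1, chr10:86705523-86705561, minus strand: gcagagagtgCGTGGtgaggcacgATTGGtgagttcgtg
Calr, chr8:84847065-84847103, minus strand: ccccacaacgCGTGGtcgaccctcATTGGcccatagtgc
Canx, chr11:50325790-50325828, minus strand: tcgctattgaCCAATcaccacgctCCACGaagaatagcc
Pdia6, chr12:17266481-17266519, plus strand: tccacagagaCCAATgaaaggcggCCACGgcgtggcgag

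Pdia3 and Pdia4 held the element only with 1 mismatch, and 1.5% of all windows held it at 1 mismatch or fewer. Hsp90b1 held 1 more site with 1 mismatch beside its 2 exact ones, which is not printed. These lines are written in the direction of the element, with positions counted from 1 at its first C and the letters that match in capitals. The mismatch was G19A in Pdia3 and G19T in Pdia4, at the last base of the element in both.
Pdia3, chr2:121413873-121413891, plus strand: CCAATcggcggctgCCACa
Pdia4, chr6:47813602-47813620, plus strand (the gene is on the minus strand): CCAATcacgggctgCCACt

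P4hb and Sdf2l1 held no ERSE at 1 mismatch or fewer. A CCAAT box alone was present in all 9 windows, against 37.4% of all windows, and the CCACG end alone in 8 of the 9, against 32.8%. No window of the 9 held the ERSE-II (ATTGG and CCACG with 1 base between them; 0.0365% of all windows), the core TGACGTGG of the unfolded protein response element (0.676%), the cyclic AMP response element TGACGTCA (1.79%) or the ATF4-type motif TGATGNAAN (3.95%). These motifs were searched as exact letters only. The printed Hspa5 sequence holds tgacgtga, which differs at 1 base from TGACGTCA and at 1 base from TGACGTGG. An ERSE also counts as a CCAAT box and as a CCACG match. A match describes the letters of a window and not binding.

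In GENCODE on the same build, the loci are Hspa5 at chr2:34771970-34777547 and Hyou1 at chr9:44379490-44392369 on the plus strand, with Pdia3 at chr2:121413775-121438687 and Pdia6 at chr12:17266545-17284770. On the minus strand are Sdf2l1 at chr16:17130138-17132383, Hsp90b1 at chr10:86690209-86705509, Calr at chr8:84841850-84846934, Canx at chr11:50293961-50325673, P4hb at chr11:120560298-120573253 and Pdia4 at chr6:47796141-47813430. The gene starts of GENCODE and RefSeq are not the same for every gene, and the windows here are placed by the RefSeq start. The counts are given per gene symbol and do not separate transcript forms.

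All 10 genes were lower in KO than in WT islets (adjusted p under 0.05, edgeR, run as a term). The decreases ran from 18.8% for Pdia4 to 47.4% for Sdf2l1, and their median log2 fold change was −0.46, against 0.02 over all tested genes. Of all tested genes, 18.5% were called, 8.96% lower and 9.56% higher, and of the 3852 genes with an average level at least that of Sdf2l1, the lowest of the 10, 16.3% were called lower. The 10 were chosen with earlier results of these data known and varied together, so these shares are no test of the set. Together the 10 genes supplied 13669 ± 2891 CPM to WT libraries (SD, n = 5) and 9505 ± 1219 CPM to KO libraries (SD, n = 4). In bulk islets, fewer cells of a type and less RNA per cell cannot be told apart. Scaled by library totals alone, without the TMM factor (a between-library scaling), the median of all genes moved from 0.02 to 0.13. The share of calls that were higher moved from 51.6% to 78%, and the called members from 10 to 3 (Hspa5, Sdf2l1 and Calr). The median of the 10 relative to that of all genes was −0.47 with the factor and −0.48 without it. Scaling shifts all genes of a library alike, so this difference was bound to change little.

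**Figure D1:**
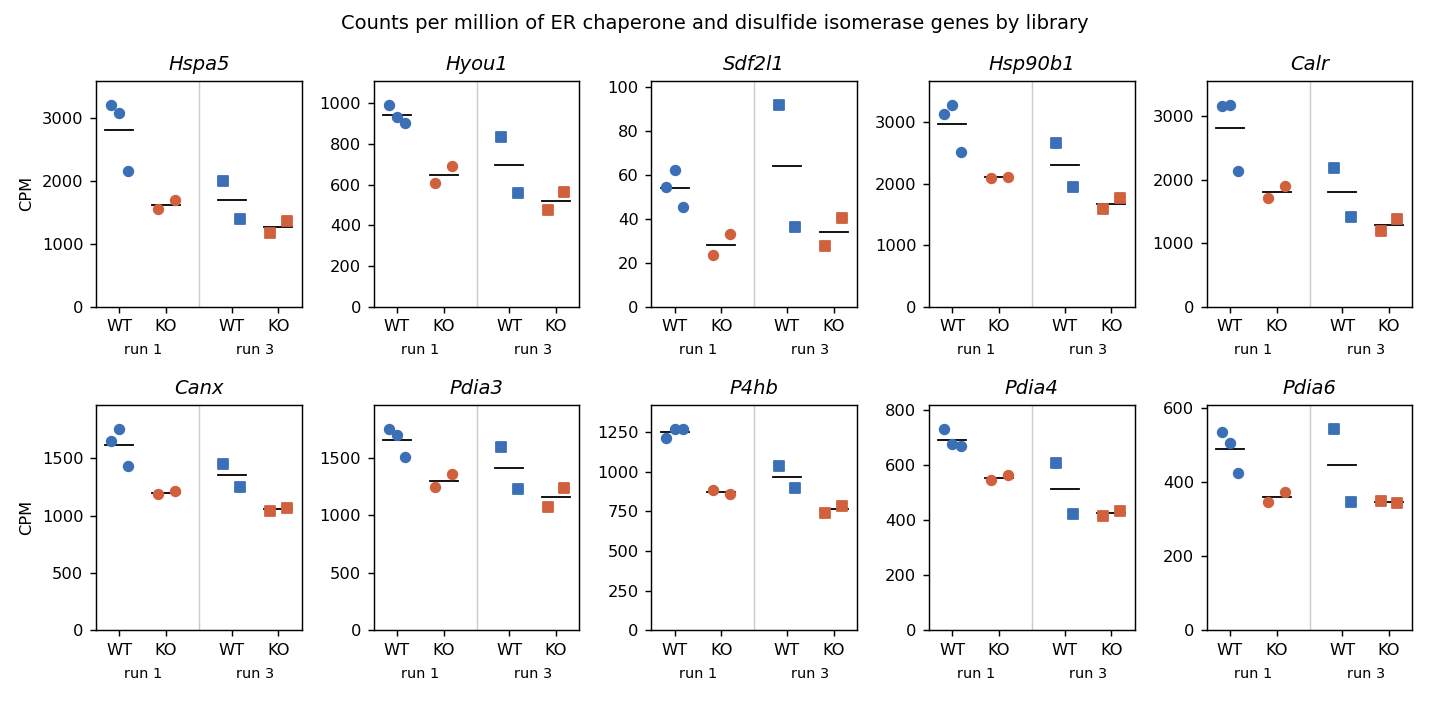
Level of each of the 10 genes in CPM (TMM-scaled) in every library, by genotype and run; points are single libraries. Lines are means. In run 1 all KO points lie below all WT points for each gene, and in run 3 WT 5 lies below at least 1 KO point for 5 of the genes.

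The HSP70 of the ER and its partners come first. Hspa5 stood at 3203, 3073 and 2158 CPM in WT 1, WT 2 and WT 3, against 1554 and 1688 CPM in KO 1 and KO 2. In run 3 it stood at 1990.2 and 1400.0 CPM in WT 4 and WT 5, against 1176 and 1357 CPM in KO 3 and KO 4. Within each run every KO library was below every WT library, but WT 5 of run 3 was below both KO libraries of run 1. Hspa5 fell by 35.1%, a log2 fold change of −0.62 ± 0.13 (SE; 95% interval −0.91 to −0.34; edgeR, adjusted p = 0.00422). The change was −0.81 within run 1 and −0.43 within run 3.

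Hyou1 (GRP170) is the large HSP70 relative that releases ADP from Hspa5 and so lets its cycle go on. Hyou1 stood at 991, 934 and 903 CPM in WT 1 to WT 3 against 609 and 689.9 CPM in KO 1 and KO 2, and at 835 and 557 CPM in WT 4 and WT 5 against 474 and 565 CPM in KO 3 and KO 4. KO 4 was above WT 5, so the groups overlapped in run 3. It fell by 28.5% (log2 fold change −0.48 ± 0.11, SE; edgeR, adjusted p = 0.00527), by 0.55 on the log2 scale in run 1 and by 0.43 in run 3.

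Sdf2l1, which works with the J-protein Dnajb11 as a cofactor of Hspa5, was the least abundant of the 10 and had the largest estimated decrease. Its reads numbered 93 to 609 per library. Sdf2l1 stood at 54.2, 62.2 and 45.3 CPM in WT 1 to WT 3 against 23.4 and 32.9 CPM in KO 1 and KO 2. In run 3 it stood at 91.7 CPM in WT 4 and 36.3 CPM in WT 5, against 27.4 CPM in KO 3 and 40.2 CPM in KO 4. The highest value of the gene was therefore in WT 4, and WT 5 was below KO 4. It fell by 47.4%, a log2 fold change of −0.93 ± 0.22 (SE; 95% interval −1.39 to −0.46; edgeR, adjusted p = 0.00811), with −0.94 in run 1 and −0.93 in run 3. Without WT 4 the log2 fold change was −0.62 (edgeR, adjusted p = 0.049).

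Hsp90b1 acts after Hspa5 on a narrower set of clients, among them integrins and Toll-like receptors. Hsp90b1 stood at 3123, 3275 and 2507 CPM in WT 1 to WT 3 against 2092 and 2109 CPM in KO 1 and KO 2, and at 2667 and 1937 CPM in WT 4 and WT 5 against 1583 and 1763 CPM in KO 3 and KO 4. The KO libraries were the lower ones within each run. It fell by 28.4% (log2 fold change −0.48 ± 0.10, SE; edgeR, adjusted p = 0.00481), and the changes in run 1 (−0.51) and run 3 (−0.47) differed little. Its locus overlaps 3 annotated non-coding genes (1810014B01Rik, Gm15344 and Gm25745), and the sources used here do not say whether strand was used in counting.

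The lectin arm consists of Calr, soluble and also a calcium store of the ER, its membrane-bound relative Canx, and Pdia3 (ERp57), the disulfide isomerase that binds both. Calr stood at 3151, 3170.1 and 2134 CPM in WT 1 to WT 3 against 1703 and 1896 CPM in KO 1 and KO 2. In run 3 it stood at 2186 and 1406 CPM in WT 4 and WT 5 against 1185 and 1386 CPM in KO 3 and KO 4. The groups were apart within each run, in run 3 by the narrow gap between WT 5 and KO 4. Calr fell by 32.7% (log2 fold change −0.57 ± 0.14, SE; edgeR, adjusted p = 0.00858), with −0.66 in run 1 and −0.49 in run 3. The annotation also holds a Calr pseudogene on chromosome 2, and the sources used here do not say how reads with several matches were counted.

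Canx stood at 1652, 1757 and 1431 CPM in WT 1 to WT 3 against 1190.0 and 1213 CPM in KO 1 and KO 2, and at 1448 and 1253 CPM in WT 4 and WT 5 against 1044 and 1065 CPM in KO 3 and KO 4. All 4 KO libraries were below all 5 WT libraries over both runs. Canx fell by 23.9%, a log2 fold change of −0.39 ± 0.08 (SE; edgeR, adjusted p = 0.00371). Pdia3 stood at 1753, 1699 and 1507 CPM in WT 1 to WT 3 against 1244 and 1362 CPM in KO 1 and KO 2. In run 3 it stood at 1597 and 1229 CPM in WT 4 and WT 5 against 1073 and 1238 CPM in KO 3 and KO 4, where KO 4 was above WT 5. Pdia3 fell by 19.8% (log2 fold change −0.32 ± 0.09, SE; edgeR, adjusted p = 0.0248). Its call was lost when WT 1, KO 1, WT 4 or KO 3 was left out (adjusted p up to 0.0955, with log2 fold changes between −0.40 and −0.25 over the leave-outs).

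Among the other disulfide isomerases, P4hb (PDI itself, also a subunit of the collagen prolyl hydroxylase) had the lowest p-value of the 10. P4hb stood at 1210.3, 1269 and 1267 CPM in WT 1 to WT 3 against 883 and 861 CPM in KO 1 and KO 2, and at 1033 and 894 CPM in WT 4 and WT 5 against 742 and 785 CPM in KO 3 and KO 4. All 4 KO libraries were below all 5 WT libraries, as for Canx. P4hb fell by 26%, a log2 fold change of −0.44 ± 0.08 (SE; edgeR, adjusted p = 0.00126), with −0.53 in run 1 and −0.34 in run 3.

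Pdia4 (ERp72), which carries 1 more thioredoxin-like active site than P4hb, had the smallest estimated change. Pdia4 stood at 730.3, 675 and 668 CPM in WT 1 to WT 3 against 544 and 563 CPM in KO 1 and KO 2. In run 3 it stood at 607 and 420.4 CPM in WT 4 and WT 5 against 415 and 433 CPM in KO 3 and KO 4, so that the 2 genotypes overlapped and WT 4 alone stood apart. It fell by 18.8% (log2 fold change −0.30 ± 0.09, SE; edgeR, adjusted p = 0.0368). The call was lost in 7 of the 9 fits that each left out 1 library, all except those without WT 3 or WT 5, and the log2 fold change was −0.20 without WT 4 (edgeR, adjusted p = 0.15).

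Pdia6 (P5) is a disulfide isomerase that associates with Hspa5. Pdia6 stood at 533, 505 and 425 CPM in WT 1 to WT 3 against 345 and 373 CPM in KO 1 and KO 2, and at 543 and 347 CPM in WT 4 and WT 5 against 348 and 344 CPM in KO 3 and KO 4. WT 5 lay among the KO values, and the 4 KO libraries were close to each other at 352 ± 13.9 CPM (SD, n = 4). Pdia6 fell by 24.5% (log2 fold change −0.41 ± 0.11, SE; edgeR, adjusted p = 0.0196). Without WT 4 the log2 fold change was −0.29 and the call was lost (adjusted p = 0.0908), and without KO 1 the call was lost too. Pdia6 overlaps Atp6v1c2 on the other strand, and Pdia3 overlaps Catsper2.

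**Figure D2:**
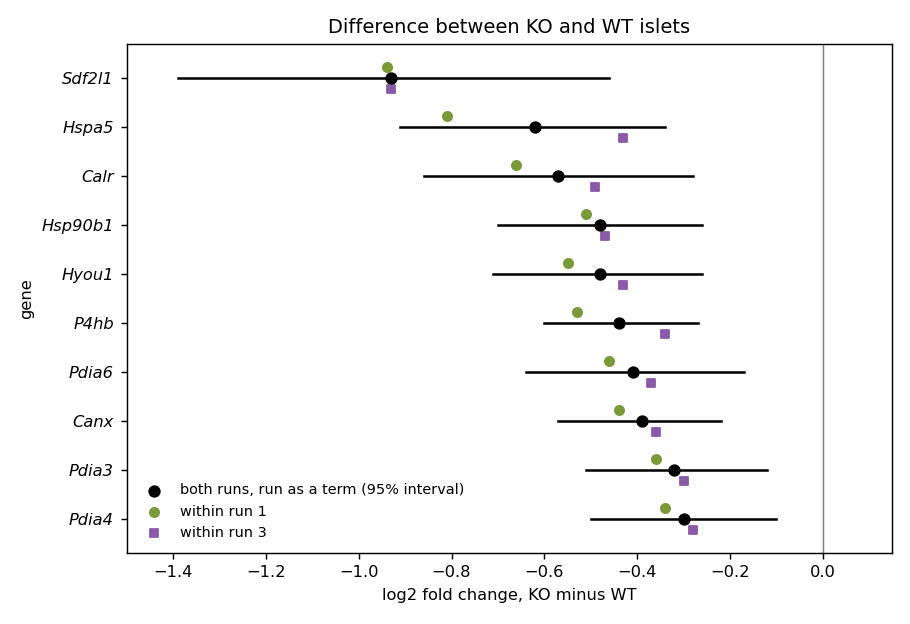
Log2 fold change of each gene, KO minus WT, with its 95% interval from both runs (black) and the estimates within run 1 (green) and run 3 (purple). Every interval lies below 0, from −0.30 for Pdia4 to −0.93 for Sdf2l1, and for each gene the estimates of both runs are below 0.

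An exact permutation test of genotype labels within runs, applied to each gene alone (two-sided, 60 arrangements, smallest possible p 0.0167), gave that smallest p for Canx and P4hb. The same exact permutation test gave p = 0.0333 for Hyou1, Hsp90b1 and Pdia4, p = 0.05 for Hspa5, Sdf2l1, Calr and Pdia3, and p = 0.0833 for Pdia6, each before adjustment for the 10 genes. Over both runs, 2 of the 10 genes had all KO libraries below all WT libraries, against 5.13% of all tested genes and 8.33% of the 3852 genes at least as abundant as Sdf2l1. Within each run, 5 of the 10 did (Hspa5, Hsp90b1, Calr, Canx and P4hb), against 11% and 18.2%. The permutation test and these counts use TMM-scaled levels. As a share of all counts of a library, the 10 genes together made up 1.5% in WT 4 and 0.924% in WT 5. In KO 3 and KO 4 they made up 0.943% and 1.04%, so without the TMM factor WT 5 was the lowest of run 3.

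The runs were also read one by one. The estimates of all 10 genes were below 0 in both runs, as were those of 34.9% of all tested genes (48% were below 0 over both runs together). In run 1 all 10 genes had both KO libraries below all 3 WT libraries, against 19% of all tested genes, and in run 3 the same 5 genes had both KO below both WT libraries, against 25.5%. Tested within run 1 alone, 4 genes were called lower (Hspa5, Hyou1, Sdf2l1 and P4hb; 2.92% of all tested genes were). Tested within run 3 alone, 5 genes were called lower (Hspa5, Hsp90b1, Calr, Canx and P4hb; 4.24%). The difference between the runs was itself tested as the interaction of genotype and run. No member was called (the largest interaction was 0.37 ± 0.25, SE, for Hspa5, edgeR, adjusted p = 0.879), and of all genes 0 were called and 744 had an unadjusted p under 0.05. Such a p does not show that the runs were alike. Without the run term in the model, 0 of the 10 genes were called with edgeR, although the log2 fold changes stayed between −0.90 (Sdf2l1) and −0.34 (Pdia3 and Pdia4).

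Run itself went with the level of these genes. In run 3, 7 of the 10 were called lower than in run 1 (Hspa5, Hyou1, Hsp90b1, Calr, Canx, P4hb and Pdia4; 16.3% of all tested genes were), with log2 differences from −0.58 for Calr to −0.23 for Canx. Sdf2l1 (0.26), Pdia3 (−0.20) and Pdia6 (−0.10) were not called. The 3 WT libraries of run 1 include both Ogt f/+ libraries, so the f/+ genotype was measured in run 1 alone. Between f/f and f/+ WT libraries, with run as a term, 0 members and 0 of all genes were called by edgeR, and 398 genes had an unadjusted p under 0.05. The f/f minus f/+ estimates of the 10 genes lay between −0.06 ± 0.17 (SE) for Hyou1 and 0.23 ± 0.34 for Sdf2l1.

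The levels of the 10 genes varied together from library to library. After subtraction of each run's mean log2 CPM, the Pearson correlations of the 45 pairs over the 9 libraries had a median of 0.942, from 0.822 to 0.984. The genotype difference enters these values, and with the mean of each run and genotype subtracted the median was 0.872, from 0.456 to 0.993. The 9 points share library depth and scaling. P4hb followed the others least closely, with r = 0.889 to the mean of the other 9, and Pdia3 most closely, with 0.988. WT 3 shows the difference: P4hb was 0.23 above its run mean there on the log2 scale, while Calr was 0.13 below its own.

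**Figure D3:**
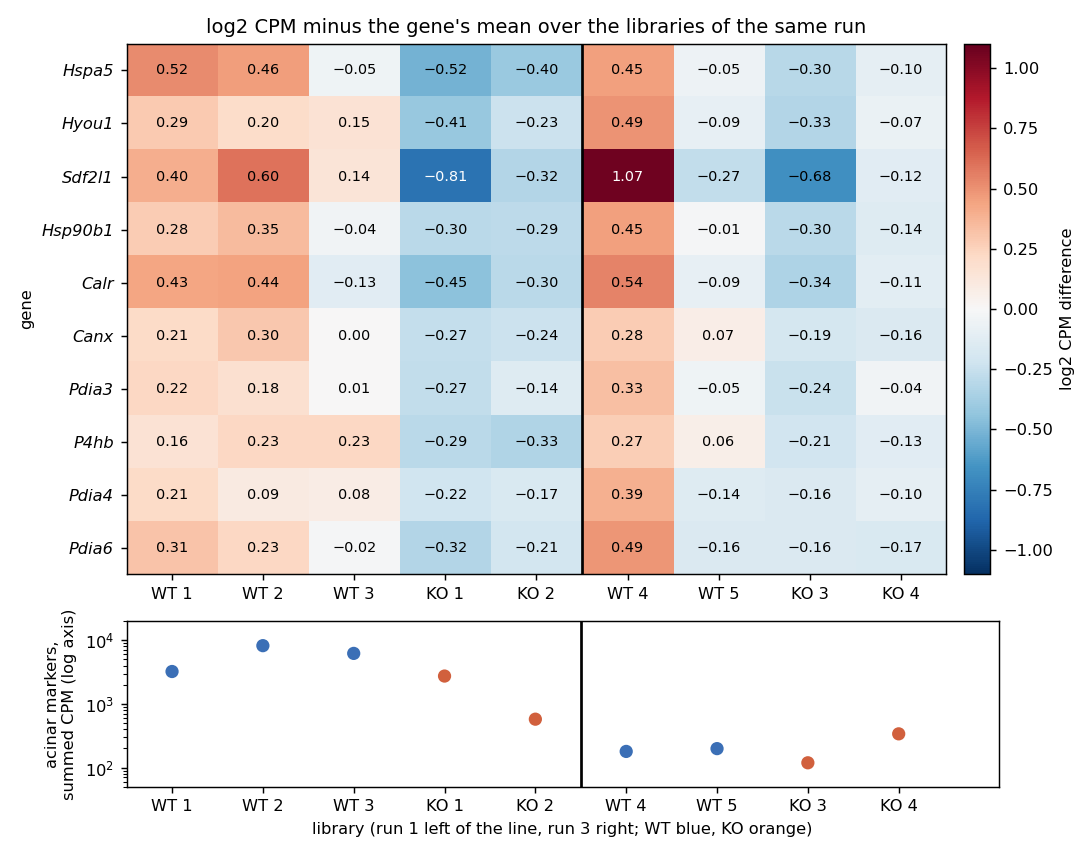
Upper panel: log2 CPM of each gene minus its mean over the libraries of the same run, for the 9 libraries in columns. Lower panel: summed CPM of the 22 tested acinar markers per library on a log axis. WT 1, WT 2 and WT 4 are above their run means for all 10 genes, all 4 KO libraries are below for all 10, and WT 3 and WT 5 are above for some genes and below for others; in run 3, where the acinar level is at most 339 CPM, WT 4 is the high library.

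Acinar transcripts moved with genotype in run 1 and not in the same way in run 3. The median log2 fold change of the 22 tested acinar markers was −1.85 within run 1 and 0.24 within run 3, while that of the 10 ER genes was −0.52 and −0.40. Over both runs 5 of the 22 acinar markers fell and 0 rose with edgeR (8.96% and 9.56% of all tested genes did). DESeq2 called 1 lower and limma-voom 20. With the mean acinar level of each library added to the model, 8 of the 10 genes remained called and Pdia3 and Pdia4 were not. Sdf2l1 then had a log2 fold change of −0.96, Hspa5 of −0.59 and P4hb of −0.38. Over the 9 run-centred libraries the mean of the 10 genes had r = 0.431 with the acinar level, and r = −0.205 with run and genotype means subtracted. The share of Rn45s was highest in WT 2 (28.5%) and in WT 5 (24.3%), of which WT 2 was among the high and WT 5 among the low libraries for the 10 genes. The mean of the 10 genes had r = −0.0355 with the Rn45s share over the run-centred libraries, and r = −0.602 with run and genotype means subtracted. All 10 genes were called when WT 2 and WT 5 were left out, and when Rn45s was removed before scaling. WT 1 and WT 2 had the highest levels of run 1, and without both of them 6 genes were called and Calr, Pdia3, Pdia4 and Pdia6 were not.

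Levels between genes were compared per transcript length, as FPKM (fragments scaled by transcript length and by library). In WT islets Calr was the most abundant at 1206 ± 365 FPKM (SD, n = 5). Hsp90b1 (939 ± 175 FPKM) and Hspa5 (933 ± 258 FPKM) followed and did not differ beyond their spread: Hsp90b1 was the higher in 3 of 5 WT libraries and in 4 of 4 KO libraries. Then came Pdia3 (558 ± 76.8 FPKM), P4hb (434 ± 45.3 FPKM), Canx (332 ± 39.8 FPKM), Pdia4 (249.7 ± 42.7 FPKM), Pdia6 (207 ± 37.4 FPKM), Hyou1 (175 ± 32.3 FPKM) and Sdf2l1 (60.2 ± 25.7 FPKM). Every neighbouring pair other than Hsp90b1 and Hspa5 held this order in all 5 WT and all 4 KO libraries.

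In KO islets the order was the same, from Calr at 773 ± 149 FPKM (SD, n = 4) to Sdf2l1 at 32.0 ± 9.19 FPKM. Of the summed FPKM of the 10 genes, Hspa5 made up 18.1% ± 1.45 (SD) in WT and 16.4% ± 0.434 in KO, and Calr 23.3% ± 2.51 and 21.9% ± 1.95. Pdia3 made up 11.1% ± 0.848 in WT and 12.6% ± 0.408 in KO, and Pdia4 4.94% ± 0.447 and 5.68% ± 0.154. These shares were not tested. On log2(FPKM + 1), limma called 6 of the 10 genes lower, against 7.05% of all genes tested on that scale. Calr, Pdia3, Pdia4 and Pdia6 were not called there (adjusted p = 0.0573 to 0.11), with log2 differences of −0.55, −0.31, −0.28 and −0.39.

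**Figure D4:**
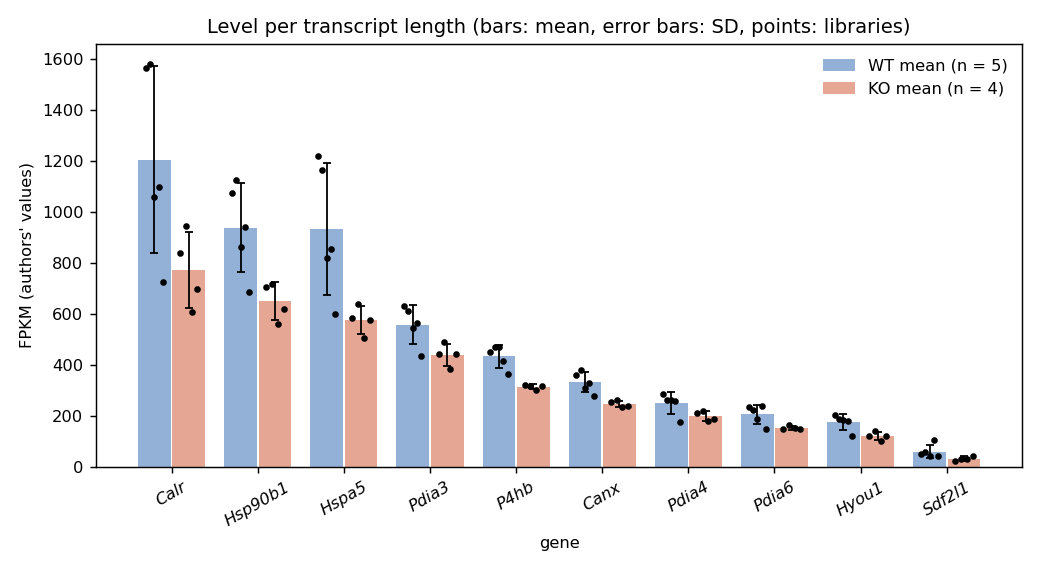
FPKM of the 10 genes (bars: mean of 5 WT or 4 KO libraries, error bars: SD, points: libraries), ordered by the WT mean. Calr is at the top (WT mean 1206 FPKM) and Sdf2l1 at the bottom (60.2 FPKM), and the order of the genes is shared by both genotypes.

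Genes that work with these 10 were taken as lists. Of 11 cofactors of the ER HSP70, 8 fell, 0 rose and 3 were not called, with a median log2 fold change of −0.39 (0.02 for all tested genes, of which 8.96% fell). Dnajb9 (ERdj4), a J-protein of Hspa5, fell by 0.93 on the log2 scale (277 ± 29.6 CPM in WT, n = 5, and 145 ± 9.56 CPM in KO, n = 4; edgeR, adjusted p = 7.67e-06). The membrane J-protein Dnajc1 fell by 0.56 (adjusted p = 0.000409, edgeR). Manf, a secreted protein of the ER that binds Hspa5, fell by 0.54 (adjusted p = 0.0038, edgeR).

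Beside the lectin chaperones stand the enzymes that trim and re-add the glucose they read, and Clgn (calmegin), a Canx-like chaperone known from testis. Of these 6 genes, 0 were called in either direction by edgeR, by DESeq2 or by limma-voom, and 1, Clgn, had an unadjusted p under 0.05 in edgeR. Their median log2 fold change was 0.01. Among all tested genes 18.5% were called by edgeR, 8.96% lower and 9.56% higher. With only 6 genes, 0 calls is near that share and does not set the list apart. The lowest p-values of the 6 were those of Clgn (1.24 ± 0.53, SE, at 1.4 CPM in WT), Uggt2 (0.26 ± 0.15) and Prkcsh (−0.14 ± 0.11). Whether they differ from Calr, Canx and Pdia3 was not tested.

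Of 16 other disulfide isomerases and ER oxidases tested, 3 fell (18.8%, against 8.96% of all tested genes), 0 rose and 13 were not called. The median was −0.20, and of genes at least as abundant as Sdf2l1 16.3% fell. The oxidase Ero1l, which re-oxidises P4hb, fell by 0.99 (126 ± 28 CPM in WT and 62.4 ± 12.9 CPM in KO; edgeR, adjusted p = 0.000534). The change of Ero1l was −1.43 ± 0.19 (SE) within run 1 and −0.57 ± 0.12 within run 3. Its f/f minus f/+ estimate among WT libraries was −0.67 ± 0.17 (SE). Neither the interaction with run nor that genotype difference was called after adjustment. Ero1lb, the oxidase isoform abundant in the pancreas, fell by 0.48 (adjusted p = 0.0196, edgeR), and Erp44, which retains the oxidases in the early secretory pathway, fell by 0.38 (adjusted p = 0.00327, edgeR). Pdilt, Agr2 and Gpx7 did not pass the filter. Pdia2, the isomerase typical of acinar cells, was picked out here after its values were seen. It had −1.28 ± 0.37 (SE) in run 1 and 1.52 ± 0.76 in run 3 and was not called. Its level was low, at 14.4 ± 13.5 CPM in WT (SD, n = 5) and 5.79 ± 5.67 CPM in KO libraries (SD, n = 4). The median of the acinar markers also changed sign between runs, and a link between the 2 was not tested.

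Of 8 tested ER prolyl isomerases and the collagen chaperone, 2 fell, Fkbp9 (−0.36) and Fkbp2 (−0.34), and 1 rose, the collagen chaperone Serpinh1 (0.49, edgeR, adjusted p = 0.008). The rise of Serpinh1 was 0.79 ± 0.14 (SE) within run 1 and 0.18 ± 0.11 within run 3, where it was not called. Its interaction of genotype and run was not called either (edgeR, adjusted p = 0.795). Among all tested genes 8.96% fell and 9.56% rose. Fibroblast markers, whose cells express Serpinh1, summed to 85.5 to 209 CPM in WT and 180 to 302 CPM in KO libraries of run 1, and to 483 to 690.2 CPM and 768 to 839 CPM in run 3. Of the 5 tested fibroblast markers 1 rose. Their part in the rise of Serpinh1 was not tested.

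Of 13 regulators of the unfolded protein response, 5 fell (38.5%, against 8.96% of all tested genes), 0 rose and 8 were not called. Their median log2 fold change was −0.27. Ddit3 (CHOP), a transcription factor induced by PERK signalling, fell by 1.49 (345 ± 208 CPM in WT and 109 ± 42.3 CPM in KO; edgeR, adjusted p = 0.000184). Atf4 fell by 0.73 (adjusted p = 1.98e-05, edgeR) and Eif2ak3 by 0.58 (adjusted p = 0.000434, edgeR). Xbp1 (−0.36) and Ern1 (−0.45), named after their values were seen, were the other two. Atf6, also named after its values were seen, had −0.10 ± 0.10 (SE; edgeR, adjusted p = 0.535). Transcript levels do not measure splicing of Xbp1 or cleavage of Atf6.

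Chaperones of the cytosol and mitochondria served as a comparison. Of 22, 4 fell (18.2%) and 1 rose, with a median of −0.14. Among all tested genes 8.96% fell, as did 16.3% of those at least as abundant as Sdf2l1. The mitochondrial HSP70 Hspa9 fell by 0.76 (1201 ± 336 CPM in WT and 669 ± 125 CPM in KO; edgeR, adjusted p = 0.000133). The cytosolic HSP110 family member Hspa4l rose by 0.62 (adjusted p = 0.000141, edgeR), and the chaperonin subunit Cct4 fell by 0.39 (adjusted p = 0.0226, edgeR). Of the cytosolic relatives of Hspa5 and Hsp90b1, all named after their values were seen, Hspa8 (−0.16 ± 0.13) and Hsp90ab1 (−0.06 ± 0.11, SE) were not called. Others in the list differed from these: Hspa2 was called lower (−0.49 ± 0.14, SE; edgeR, adjusted p = 0.0267). Hspa1a (−0.81 ± 0.34), Hspa1b (−0.32 ± 0.31) and Hsp90aa1 (0.31 ± 0.13, SE) were not called. Hspa8 varied widely, at 1376 ± 897 CPM in WT (SD, n = 5).

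Of 11 secreted proteins and processing enzymes that pass through the ER of islet cells, 4 fell (36.4%) and 0 rose. Among all tested genes 8.96% fell and 9.56% rose, and 16.3% fell of those at least as abundant as Sdf2l1. Iapp (amylin) fell by 0.61 (11977 ± 1630.2 CPM in WT and 7697 ± 788 CPM in KO; edgeR, adjusted p = 0.000378), the prohormone convertase Pcsk1 by 0.79 (adjusted p = 0.000803, edgeR) and the carboxypeptidase Cpe by 0.30 (adjusted p = 0.0143, edgeR). The main ER client of beta cells, Ins2, was chosen after its values were seen and had −0.16 ± 0.16 (SE; adjusted p = 0.534, edgeR). Beta cell markers as a list of 10 had 5 falls and 0 rises with a median of −0.43, beside the −0.46 of the ER genes. Of 6 delta and PP cell markers 2 rose and 0 fell (median 0.46), and of 6 alpha cell markers 1 rose and 0 fell (median 0.31). The summed delta and PP markers, led by Sst and Ppy, were 3028 to 4028 CPM in WT and 5306 to 5510.2 CPM in KO libraries of run 1, and 2986 to 3053 CPM in WT and 3907 to 4803 CPM in KO libraries of run 3. They were thus higher in every KO than in every WT library of the same run. Sst and Ppy themselves were not called (edgeR, adjusted p = 0.0889 and 0.0772). The 2 that rose were Rbp4 and Pyy, named after their values were seen. Summed beta cell markers overlapped in run 1, at 64012.5 to 110232 CPM in WT and 55843 to 83074 CPM in KO libraries. In run 3 the beta sum was 47900 to 54501 CPM in WT and 42845 to 46675 CPM in KO libraries. Summed alpha cell markers overlapped in both runs. The part of cell type shares in the decrease of the ER genes was not tested.

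**Figure D5:**
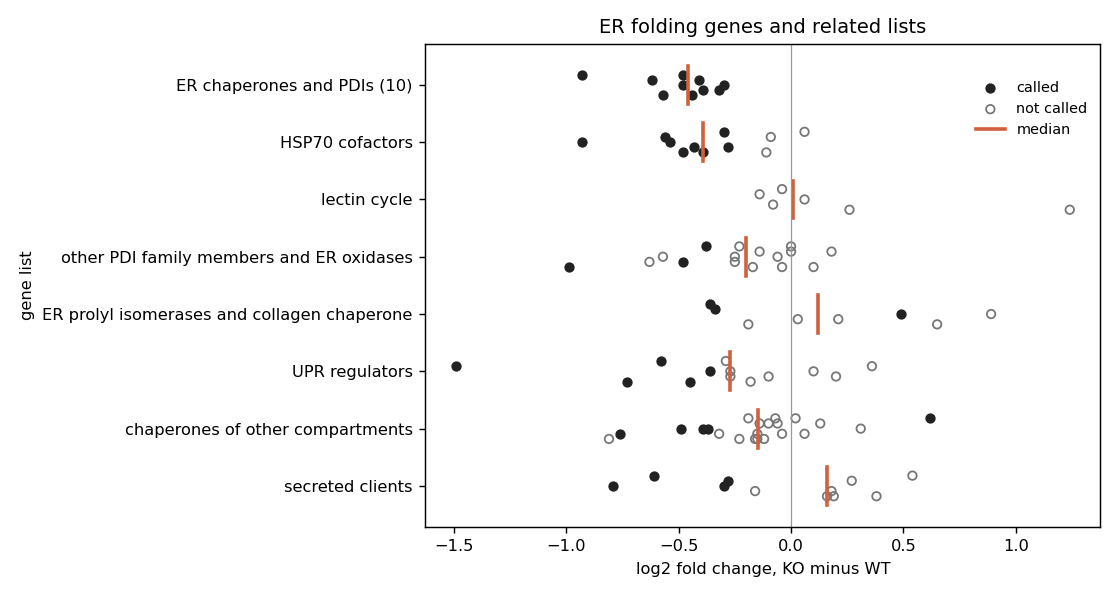
Log2 fold change (KO minus WT) of every tested gene of the 10 ER genes and of the related lists; each point is a gene, called genes are filled, and the bar is the list's median. The 10 ER genes lie between −0.93 and −0.30 with a median of −0.46, the HSP70 cofactors have a median of −0.39 and the lectin cycle of 0.01.

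Of 32 other genes with an exact ERSE in a RefSeq window, 25 were in the count table, 1 of them under an older symbol, and 12 were tested. Of these 2 fell, 0 rose and 10 were not called, with a median log2 fold change of −0.15 (3 had an unadjusted p under 0.05). Among all tested genes 8.96% fell. Those that fell were Dnajc3, a J-protein of the ER (−0.39 ± 0.09, SE; edgeR, adjusted p = 0.00547), and the oxidase Ero1lb described above, which RefSeq lists as Ero1b. Creld2, another ER protein of the same set and chosen after its values were seen, had −0.11 ± 0.11 (SE; adjusted p = 0.53, edgeR). Their elements are printed for comparison with those above.
Dnajc3, chr14:118937817-118937855, plus strand: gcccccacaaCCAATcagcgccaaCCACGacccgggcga
Ero1lb, chr13:12565672-12565710, plus strand: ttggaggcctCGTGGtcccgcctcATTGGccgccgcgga
Creld2, chr15:88819510-88819548, plus strand: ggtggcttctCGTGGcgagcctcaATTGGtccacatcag

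Among the 9 genes with a window, the 5 with an exact ERSE had log2 fold changes from −0.62 (Hspa5) to −0.39 (Canx), and the 2 with none at 1 mismatch, P4hb and Sdf2l1, had −0.44 and −0.93. The 2 with 1 mismatch, Pdia3 and Pdia4, had the smallest estimated changes of the 10, −0.32 and −0.30. No difference between these sets was tested.

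The genes whose run-centred levels followed the mean of the 10 most closely, out of the 10903 genes whose average log2 CPM reached 2, were Srp72 (r = 0.995), Sf3b5 (0.986), Vimp (0.986), Manf (0.984) and Rrbp1 (0.973), over 9 libraries that share depth and scaling. The genotype difference enters these correlations, so the direction of the genes between KO and WT follows largely from how they were picked and is given with no test. Srp72 encodes a subunit of the signal recognition particle, which brings nascent secretory proteins to the ER, Vimp (selenoprotein S) a part of the ER degradation machinery, and Rrbp1 a ribosome receptor of the rough ER, while Sf3b5 encodes a splicing factor subunit. Their log2 differences, KO minus WT, were −0.23 (Srp72), −0.76 (Sf3b5), −0.39 (Vimp), −0.54 (Manf) and −0.29 (Rrbp1).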

How the data were processed

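RNA from islets was sequenced as stranded total RNA libraries on a HiSeq2500, per the labels. The authors deposited read counts per gene symbol, taken as raw because they are whole numbers with unequal totals, and FPKM values per symbol. Per the submitters' processing notes, FastQC, Bowtie2 2.2.4.0, Cuffdiff 2.2.1, edgeR and mm10 were used, with no role given. The sources used here do not say whether strand was used in counting.

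The main test was edgeR 4.0.16 (R 4.3.3), quasi-likelihood, on the deposited counts with TMM scaling, the default filter by genotype and a model of run and genotype over 9 libraries, Benjamini-Hochberg adjusted over 12501 genes and called under 0.05. CPM use TMM-scaled totals, and mean log2 levels a prior count of 2. Means ± SD pool both runs, while log2 fold changes account for run. FPKM were tested as log2(FPKM + 1) with limma 3.58.1 on genes with a mean of at least 0.5, and such changes understate those of low genes. DESeq2 1.42.0 and limma-voom were alternatives. On simulated counts for these libraries and 12501 genes, the test recovered 40% of 100 genes changed by 0.5 and 87% of 100 changed by 1 (log2). The changed genes were drawn only from those above a floor of mean count, so recovery among the lowest genes is not covered. Replicates differed by a chi-square of 3.73 (KO 3 and KO 4) to 64.2 (WT 2 and WT 4) per degree of freedom. That is more than repeated sequencing of 1 library would give. It cannot tell a second preparation of the same animal from a separate animal. The 27 symbols turned into dates by spreadsheet software were left out. Motifs were searched in RefSeq promoter windows (GRCm38.p6), whose genes were matched to the counts by symbol or RefSeq synonym, and overlaps of loci read from GENCODE on the same build.

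The 10 genes and the lists were chosen with earlier results of these data known. Named genes are the 10, Ogt, up to 3 members per list with the lowest p, up to 2 markers with the highest level, and the 5 genes most alike by run-centred correlation; any other gene is marked in the text as picked afterwards.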

Additional observations from a re-analysis of the deposited data

Results flagged for a closer look

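In the KO group, Pdia6 in KO 2 (373 CPM) lay apart from the other 3 KO libraries (344 to 348 CPM): its gap to the nearest of them was 0.875 of the group's range. Among 20 such checks of the 10 genes in both groups this was the 1 that passed the limit, and chance gives about 1 in 20. KO 2 was still below all 3 WT libraries of its run.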

How the results depend on the processing

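Over 26 alternatives the 260 log2 fold changes of the 10 genes were all below 0, and 64 were no longer called. DESeq2, limma-voom, RLE size factors, other count filters and scaling without Rn45s kept all 10 called. With no filter on low counts, Hspa5 had −0.64 (edgeR, adjusted p = 8.26e-18), against −0.62 (adjusted p = 0.00422) in the main fit. P-values of that fit are not on a par with the main ones, so its calls add no support. The number of called members and of all called genes (10 and 2315) changed to 0 and 672 without the run term, 4 and 756 within run 1, 5 and 1021 within run 3, and 2 and 1300 on log2(FPKM + 1) with no filter. Members called were 6 on log2(FPKM + 1) and on log2(FPKM + 0.1), and genes called were 1538 with f/f controls alone (9 members) and 1448 with the acinar level as a covariate (8 members). The other alternatives were chosen after seeing the data: library totals without TMM called 3 members, leaving out WT 2 and WT 5 called 1488 genes, and leaving out WT 1 and WT 2 called 6 members and 1517 genes. Leaving out each library in turn gave 7 to 10 members and 1595 to 2334 genes. Where calls were lost through the run term or TMM, the cause was not tested. No paired analysis was possible because the labels give no replicate numbers that tie a WT to a KO library. Depth limits Sdf2l1 most, at 93 reads in KO 1.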
